A study of Mus musculus with 8 samples.

Results

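The genes described here are 34 members of the p53 pathway in mouse embryonic stem (ES) cells: p53 itself (Trp53 in the mouse), its relative p73, the proteins that restrain p53, and genes that p53 is known to switch on directly. They were taken by gene symbol from a list, and all 34 were found among the 47069 genes of the deposited count tables. By role they divide into 7 genes of p53 and its feedback control, 5 that act on the cell cycle, 13 that promote or regulate cell death, 4 of DNA repair and nucleotide supply, and 5 of metabolism and defence against stress. A gene that passed the filter on low counts could be tested, and 33 members did. Fas, a death receptor gene, had between 0 and 7 reads in the 7 complete libraries and did not.

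p53 is a transcription factor that is made all the time and destroyed all the time. Mdm2 binds it and marks it for the proteasome, Mdm4 holds it inactive, and after DNA damage both grips loosen, p53 accumulates, and it raises genes that halt division, repair DNA or kill the cell. Several of its targets, Mdm2, Ppm1d and Ccng1 among them, act back on p53 and lower it again. ES cells have abundant p53 and still divide without the checkpoint in the first gap phase that most somatic cells use.

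The study sequenced poly-A RNA from 4 groups of C57BL/6 mouse ES cells: wild type cells (WT) and cells edited with Cas9, with Pcgf3 knocked out (Pcgf3KO), Pcgf5 knocked out (Pcgf5KO), or both (DKO). Pcgf3 and Pcgf5 are RING finger partners in variant forms of Polycomb repressive complex 1, which ubiquitinates histone H2A. All groups grew in fetal calf serum with leukemia inhibitory factor on a layer of mouse embryonic fibroblasts treated with mitomycin-C, so feeder RNA can be present in every library. Each group has 2 libraries, and the labels do not say how many edited clones were used or if replicates came from separate cultures, so p-values measure only the spread between these libraries. The table of WT replicate 1, as used here, stops after 8093 genes, 17.2% of the list, and covers 3 members (Trp53inp1, Bbc3 and Ephx1). Tests of all members therefore rest on 7 libraries, in which WT is replicate 2 alone: it has no replicate check and is assumed to vary like the other groups. All comparisons with WT share that 1 library, and the 2 comparisons of DKO with a single knockout share the DKO libraries.

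The 7 complete libraries held between 12652616 and 19923964 counts. Pcgf3 had 109.7 CPM (counts scaled to library size and composition) in WT and 66.1 and 60.5 in Pcgf3KO, and Pcgf5 had 20.7 in WT and 12.3 and 9.06 in Pcgf5KO. In DKO they were at 86.6 and 67.2 and at 13.5 and 13.9, where neither passed the test against WT (adjusted p = 0.0899 and 0.114), so transcript levels do not show the editing of DKO. The DKO libraries stood furthest apart: their replicates differed by a chi-square of 14.9 a gene over the genes listed in all 8 tables, against 5.13 in WT, 3.51 in Pcgf3KO and 1.66 in Pcgf5KO. For the members, the median absolute log2 ratio of one replicate to the other was 0.18 in DKO, 0.078 in Pcgf3KO and 0.067 in Pcgf5KO. ES cell markers summed to 3565 CPM in WT and to between 3813.1 and 4351.7 in the edited libraries, all 6 above WT. Of the 12, all tested, 3 were called higher in Pcgf3KO, 4 in Pcgf5KO and 3 in the DKO cells (1.08%, 1.31% and 1.33% of all genes). In each, 0 were called lower (1.28%, 1.68% and 1.89% of all genes). Of 22 feeder fibroblast markers, 8 had a mean under 1 CPM, S100a4 being at 0 in the 7 libraries, and the list summed to 224 CPM in WT, 127 and 141.2 with Pcgf3 lost, 161.9 and 165.1 with Pcgf5 lost, and 157.7 and 194.5 with both lost. Endoderm markers summed to 557.8 CPM in WT and between 272.2 and 371.5 in the edited libraries. Of these 12 markers, 6 had a mean under 1 CPM, Gata6, Sox17 and Foxa2 among them. Most of the WT sum was Lama1 (226.6), Col4a1 (200.4) and Col4a2 (114.4). Trophoblast and epithelial markers summed to 1315.5 CPM in WT and between 536.8 and 838.3 in the edited libraries. Epcam, Krt8, Krt18 and Krt19 were the most abundant of them, and Cdx2 had a mean under 1 CPM. The summed markers of these other cell types were thus lower, and those of ES cells higher, in all 6 edited libraries than in the WT library, and in bulk RNA fewer cells of a type and less RNA per cell cannot be told apart. The part of these markers in the results on p53 pathway genes was not tested.

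p53 binds DNA as a tetramer at a response element made of a pair of adjoining sites of 10 bases each, and some members carry a recognisable element beside their start. RefSeq promoter windows (build GRCm38.p6, 250 bases before to 50 after a start) were found for 26 of the 34 members. There were none for Perp, Pmaip1, Trp53inp1, Zmat3, Tnfrsf10b, Rrm2b, Ddb2 and Xpc. The p53 response element, taken as 2 such sites with no spacer, was searched allowing up to 3 mismatches in 20 bases but none at the core C and G of each. The pattern reads the same on both strands. It was found for 9 of the 26 members (34.6%), against 1.63% of 27025 genes and 1.38% of 32851 windows of 300 bases. Most members were listed as known p53 targets, so the choice of list itself favours a higher share, and these shares are no test. The 26 members also had 37 windows between them. These 9 matches are shown so that they can be compared with the element, in capitals with 5 bases on either side.
Cdkn1a: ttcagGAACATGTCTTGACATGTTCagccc
Ccng1: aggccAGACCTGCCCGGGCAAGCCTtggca
Rps27l: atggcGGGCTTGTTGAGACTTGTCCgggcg
Trp73: tctccGGGCAAGCTGAGGCCTGCCCtgagt
Trp53: cggaaGGACTTGCCCTTACTTGTTAtggcg
Tigar: gcggcGGTCTAGCTCTGGCAAGACTccagg
Aen: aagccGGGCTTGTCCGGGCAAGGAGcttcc
Bbc3: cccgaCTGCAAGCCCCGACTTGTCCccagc
Sesn1: ccttcAAGCTTGTTTTTGCTGGCCTggtcc
The elements of Cdkn1a (chr17:29090923-29090952, plus strand), Ccng1 (chr11:40755457-40755486, minus strand) and Rps27l (chr9:66946291-66946320, plus strand) had 1 mismatch each, that of Trp73 (chr4:154097215-154097244, minus strand) had 2, and the other 5 had 3. Those of Trp53 (chr11:69580279-69580308, plus strand) and Tigar (chr6:127109741-127109770, minus strand) had 3 mismatches and lay upstream of the annotated gene, as did those of Cdkn1a and Ccng1. Those of Sesn1 (chr10:41887261-41887290, plus strand), Rps27l and Trp73 lay in an intron, ahead of an internal start. That of Bbc3 (chr7:16309481-16309510, plus strand) lay in an intron in GENCODE M21 but upstream of the gene start that the count tables give (16309616). That of Aen (chr7:78895932-78895961, plus strand) overlapped an exon. A match is a string of letters and was not tested for binding, and no match says only that the element is not in this window.

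Among the members described below as lower in both single knockouts, 4 have a promoter window, and the bases upstream of their first annotated exon are shown to compare them, with the element in capitals where there is one. Ccng1 (chr11:40755312-40755536, minus strand, 225 bases, 56.4% G or C) holds it; Mdm2 (chr10:117710759-117711008, minus strand, 250 bases, 65.6%), Plk2 (chr13:110394794-110395043, plus strand, 250 bases, 68.4%) and Btg2 (chr1:134079156-134079405, minus strand, 250 bases, 73.2%) had no match.
Ccng1: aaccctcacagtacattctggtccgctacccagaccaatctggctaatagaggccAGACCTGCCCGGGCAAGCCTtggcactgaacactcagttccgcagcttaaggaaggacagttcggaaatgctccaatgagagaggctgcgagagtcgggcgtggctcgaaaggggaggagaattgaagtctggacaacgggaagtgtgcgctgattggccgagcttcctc
Mdm2: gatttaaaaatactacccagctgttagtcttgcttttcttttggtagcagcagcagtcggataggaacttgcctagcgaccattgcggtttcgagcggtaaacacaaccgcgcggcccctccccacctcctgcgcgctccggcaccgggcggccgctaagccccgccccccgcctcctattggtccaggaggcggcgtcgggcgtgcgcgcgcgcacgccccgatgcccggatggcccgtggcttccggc
Plk2: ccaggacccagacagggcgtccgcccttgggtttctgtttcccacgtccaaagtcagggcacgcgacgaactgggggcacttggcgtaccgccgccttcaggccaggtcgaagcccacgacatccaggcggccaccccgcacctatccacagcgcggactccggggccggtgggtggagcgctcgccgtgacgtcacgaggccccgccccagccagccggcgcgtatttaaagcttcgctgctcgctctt
Btg2: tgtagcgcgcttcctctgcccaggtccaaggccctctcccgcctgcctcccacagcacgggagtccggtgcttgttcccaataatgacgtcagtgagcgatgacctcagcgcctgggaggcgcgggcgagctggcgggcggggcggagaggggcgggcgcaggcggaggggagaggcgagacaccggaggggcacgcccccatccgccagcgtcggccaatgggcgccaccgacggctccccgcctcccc
Cdkn1a, whose element had 1 mismatch, is the member best known as a p53 target, and its RNA did not pass in any pairwise comparison of the 7 libraries.

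Levels between genes can be compared only per length of exon. On that scale, as the mean CPM per kilobase of exon over 7 libraries, Trp53 (123) and Rps27l (119.4) were the most abundant members, followed by Ccng1 (77.4), Bax (55.9) and Sesn2 (39.0). At the low end were Rrm2b (2.01), Gdf15 (0.948), Trp73 (0.793) and Fas (0.0609). The CPM of all 34 members summed to 3034.1 in WT, while the Pcgf3KO libraries had 2584.2 and 2569.4, the Pcgf5KO libraries 2644.6 and 2671.6, and the DKO libraries 2983.3 and 2865.3. The summed level of every single-knockout library was thus below that of WT and of both DKO libraries.

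In each single knockout a small set of p53 targets was lower than in WT and no member was higher. In Pcgf3KO 6 of 33 members fell (1.28% of the 15669 genes tested were called lower) and 0 rose (1.08% of genes). In Pcgf5KO the same count, 6, fell (1.68% of genes were lower) and 0 rose (1.31% of genes). In DKO 2 fell (1.89% of genes) and 0 rose (1.33% of genes). Mdm2, Ccng1, Plk2, Btg2, Perp and Pmaip1 were called in both single knockouts, and Plk2 and Perp in DKO. A call is an adjusted p of at most 0.05 by edgeR's quasi-likelihood test with Benjamini-Hochberg adjustment over all genes tested, and log2 fold changes are given ± their standard error. At an unadjusted p under 0.05, 0 members were higher and 17 lower in Pcgf3KO, against 3 and 11 for Pcgf5KO, and 3 and 10 for DKO, and DESeq2 called 0 higher in each and 6, 6 and 3 lower. The share of all genes under that unadjusted p was not determined, so such counts, here and below, cannot be read as an excess. The median log2 fold change of the 33 members was −0.25 in Pcgf3KO, −0.15 in Pcgf5KO and −0.06 in DKO, beside 0.0024, 0.005 and 0.0136 for all genes. In 13 of the 33 members (39.4%) all 6 edited libraries lay below the WT library, and 19.5% of all genes did so. In 3 members (9.09%), Ei24, Ddb2 and Rps27l, all 6 lay above it, as did 18.8% of all genes. The counts rest on few libraries. Without 1 library of the single knockout tested, fewer members were called in it, all lower. Without a DKO replicate more members were called, mostly lower. Without either one, Cdkn1a, Trp53inp1, Bbc3, Sesn1, Sesn2, Zmat3, Phlda3, Tnfrsf10b, Aen and Polk were also called lower in Pcgf3KO. In Pcgf5KO these were Trp53inp1, Bbc3, Sesn2, Phlda3, Tnfrsf10b, Polk and Apaf1, and in DKO they included Plk3, Sesn2, Btg2 and Tnfrsf10b. Some were higher: Trp53 in Pcgf3KO, Trp53, Bax, Ei24 and Rps27l in Pcgf5KO, and Rps27l, Mdm4, Trp53inp1, Ei24, Ddb2 or Trp73 in DKO. Those fits called more of all genes too, and the share of members called higher was near or below that of all genes. With no filter on low counts, Trp53 was called higher in Pcgf5KO and Mdm4 in DKO.

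**Figure D1:**
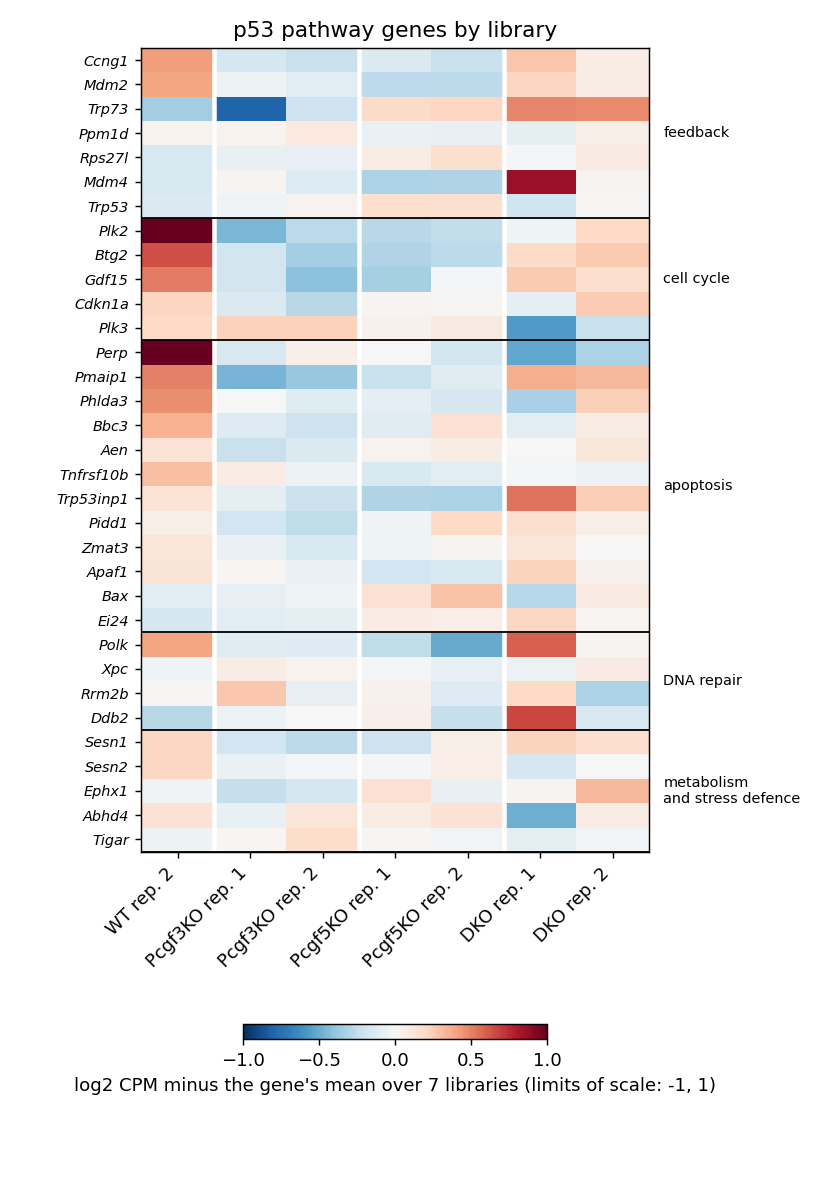
Level of each of the 33 members that passed the filter (rows, grouped by role) in the 7 complete libraries (columns), as log2 CPM minus the gene's mean over the 7 libraries, red above and blue below it. Plk2 and Perp are highest in WT replicate 2, and Mdm4 stands out in DKO replicate 1 (368.1 CPM).

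**Figure D2:**
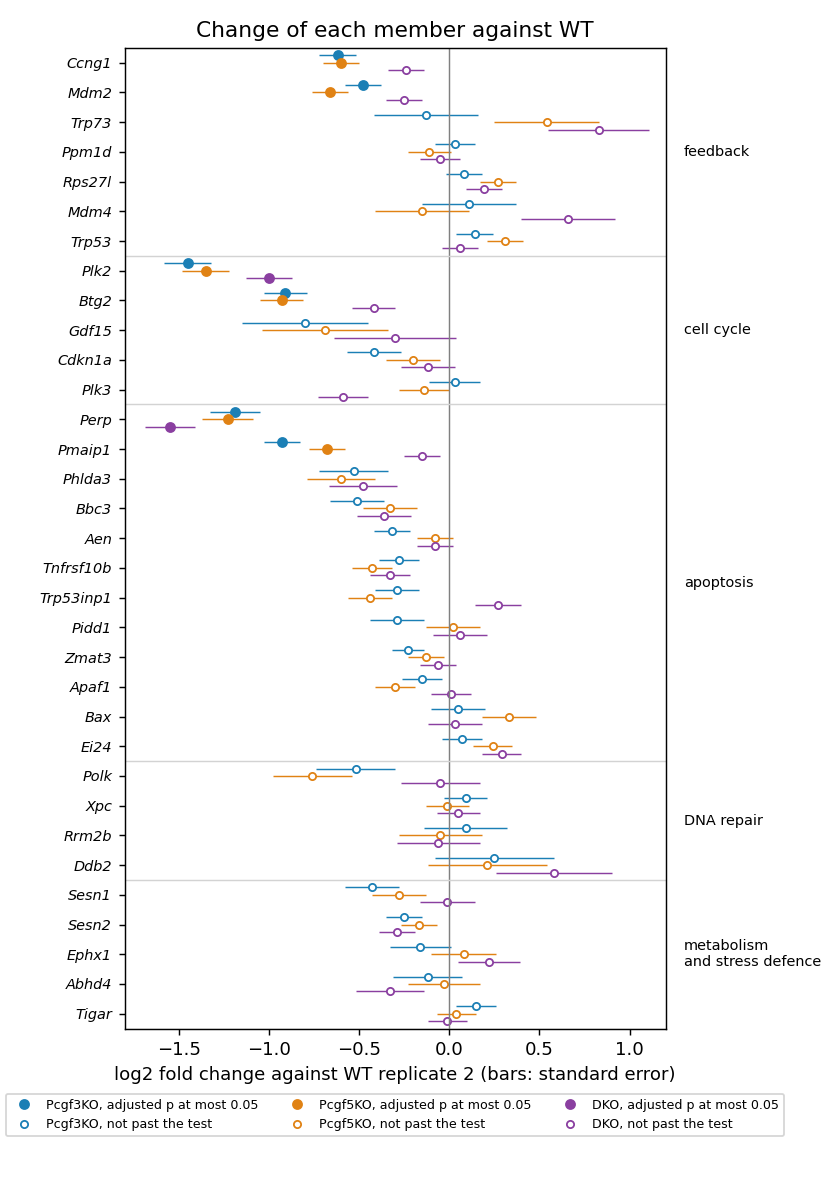
Log2 fold change of each member against WT replicate 2 (horizontal axis) in Pcgf3KO, Pcgf5KO and DKO, with bars for the standard error and filled points for an adjusted p of at most 0.05. The filled points are the 6 members lower in Pcgf3KO, the 6 lower in Pcgf5KO and the 2 lower in DKO.

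Among the genes of p53 and its feedback control, the p53-induced inhibitors Mdm2 and Ccng1 were lower in the single knockouts, while Trp53 itself did not pass in any comparison. Trp53 (chromosome 11, 69580359 to 69591873, mm10) had 448.2 CPM in the WT library, 482.1 and 508.9 in Pcgf3KO, 557.4 and 555.0 in Pcgf5KO, with 431.5 and 499.8 in DKO. Its libraries in both single knockouts lay above WT, with log2 fold changes of 0.14 ± 0.10 and 0.31 ± 0.10 that did not pass (adjusted p = 0.549 and 0.144). Without DKO replicate 1 or DKO replicate 2, Trp53 was called higher in both, in fits that also called more of all genes higher. Mdm2 (chromosome 10, 117688888 to 117710758), the ubiquitin ligase that destroys p53, had 167.6 CPM in WT, 122.7 and 117.6 with Pcgf3 lost, 106.4 and 105.9 with Pcgf5 lost, and 148.0 and 133.8 with both lost. It fell 1.39-fold in Pcgf3KO (−0.48 ± 0.10, adjusted p = 0.0357) and 1.58-fold in Pcgf5KO (−0.66 ± 0.10, adjusted p = 0.00949), and in DKO its −0.25 ± 0.10 did not pass (adjusted p = 0.202). Ccng1 (chromosome 11, 40748552 to 40755311), cyclin G1, which brings a phosphatase to Mdm2, had 357.9 CPM in WT, while the Pcgf3KO libraries had 236.7 and 229.3, the Pcgf5KO libraries 241.8 and 229.6, and the DKO libraries 324.0 and 282.5. It fell 1.54-fold in Pcgf3KO (−0.62 ± 0.10, adjusted p = 0.0145) and 1.52-fold in Pcgf5KO (−0.60 ± 0.10, adjusted p = 0.0166), and in DKO was at −0.24 ± 0.10 (adjusted p = 0.232). For both genes the order of the groups was WT, DKO and then the single knockouts, with no overlap between DKO and single-knockout libraries. The share of all genes with such a separation was not determined, for these genes or those below.

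The Mdm2 and Ccng1 calls depended on which library was left out, and were kept without either DKO replicate. Without a Pcgf3KO library the adjusted p in Pcgf3KO rose to 0.239 and 0.309 for Mdm2 (without replicate 1 and replicate 2) and to 0.138 and 0.164 for Ccng1, and without Pcgf5KO replicate 1 and replicate 2 to 0.135 and 0.134 for Mdm2 and 0.062 and 0.0613 for Ccng1, by edgeR. In Pcgf5KO they rose to 0.146 and 0.139 for Mdm2 and 0.159 and 0.205 for Ccng1 without Pcgf5KO replicate 1 and replicate 2, and for Ccng1 to 0.0672 and 0.0677 without Pcgf3KO replicate 1 and replicate 2.

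The other feedback genes did not pass in any pairwise comparison of the main fit to 7 libraries. Mdm4, the second p53 inhibitor, had 181.1 CPM in the WT library, 206.4 and 184.0 in Pcgf3KO, 162.3 and 163.9 in Pcgf5KO, with 368.1 and 206.0 in DKO. Its high mean in DKO came from replicate 1, the largest gap between replicates of any member (log2 ratio 0.84), and its change in DKO was 0.66 ± 0.26 (adjusted p = 0.209). Ppm1d, the phosphatase Wip1 that switches off the damage response, stayed between 42.5 and 48.2 CPM. Rps27l, a small p53-induced relative of ribosomal protein S27 with a similar paralog (Rps27) that may share reads, lay between 87.3 and 108.8 CPM, lowest in WT. Trp73, the gene for p73, had 3.3 CPM in WT, 2.42 and 3.64 with Pcgf3 lost, 4.79 and 4.85 with Pcgf5 lost, and 5.9 and 5.83 with both lost. The Trp73 libraries of Pcgf5KO and DKO lay above those of WT and Pcgf3KO, but DKO against Pcgf3KO (0.96 ± 0.22) gave an adjusted p of 0.071. The exons of Trp73 overlap the antisense gene Trp73os, whose reads cannot be separated if the counts ignored strand.

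Plk2 and Btg2 were the cell cycle members that fell in the single knockouts, while Cdkn1a did not pass. Plk2 (chromosome 13, 110395044 to 110400844), a polo-like kinase that p53 induces and that acts on the centriole cycle, had 91.0 CPM in WT, while the Pcgf3KO libraries had 31.3 and 35.6, the Pcgf5KO libraries 35.4 and 36.1, and the DKO libraries 41.7 and 49.1. All 6 edited libraries were far below WT: Plk2 fell 2.72-fold in Pcgf3KO (−1.45 ± 0.13, adjusted p = 0.000979), 2.55-fold in Pcgf5KO (−1.35 ± 0.13, adjusted p = 0.00141) and 2.0-fold in DKO (−1.0 ± 0.13, adjusted p = 0.00388). Its 3 calls were kept in every alternative run, with adjusted p up to 0.0394. Btg2 (chromosome 1, 134075170 to 134079120), an antiproliferative gene whose protein speeds mRNA deadenylation, had 45.6 CPM in the WT library, 25.6 and 23.0 in Pcgf3KO, 23.7 and 24.3 in Pcgf5KO, with 33.3 and 35.0 in DKO. It fell 1.87-fold in Pcgf3KO (−0.91 ± 0.12, adjusted p = 0.00633) and 1.9-fold in Pcgf5KO (−0.93 ± 0.12, adjusted p = 0.00569), and in DKO was at −0.42 ± 0.12 (adjusted p = 0.107). Without 1 library of the group tested these Btg2 calls were lost by edgeR: the adjusted p was 0.0655 and 0.103 without Pcgf3KO replicate 1 and replicate 2, and 0.111 and 0.0979 without Pcgf5KO replicate 1 and replicate 2.

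Cdkn1a (chromosome 17, 29090979 to 29100722), which encodes the p21 inhibitor of cyclin-dependent kinases and carries the element shown above, had 47.8 CPM in WT, 37.2 and 34 with Pcgf3 lost, 41.8 and 41.4 with Pcgf5 lost, and 38.6 and 49.1 with both lost. Only DKO replicate 2 reached the WT level, and the log2 fold changes were −0.42 ± 0.15 in Pcgf3KO (adjusted p = 0.192), −0.20 ± 0.15 in Pcgf5KO (0.505) and −0.12 ± 0.15 in DKO (0.684). Plk3, a polo-like kinase of the stress response, behaved unlike the others: it had 51.6 CPM in WT, while the Pcgf3KO libraries had 52.6 and 52.7, the Pcgf5KO libraries 46.2 and 47.9, and the DKO libraries 30.4 and 38.4, and against WT its −0.59 ± 0.14 in DKO gave an adjusted p of 0.056. Gdf15, a secreted stress factor of the TGF-beta family, was near the limit of detection, with 2.45 CPM in WT and 1.29 to 2.06 in the edited libraries, and did not pass.

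**Figure D3:**
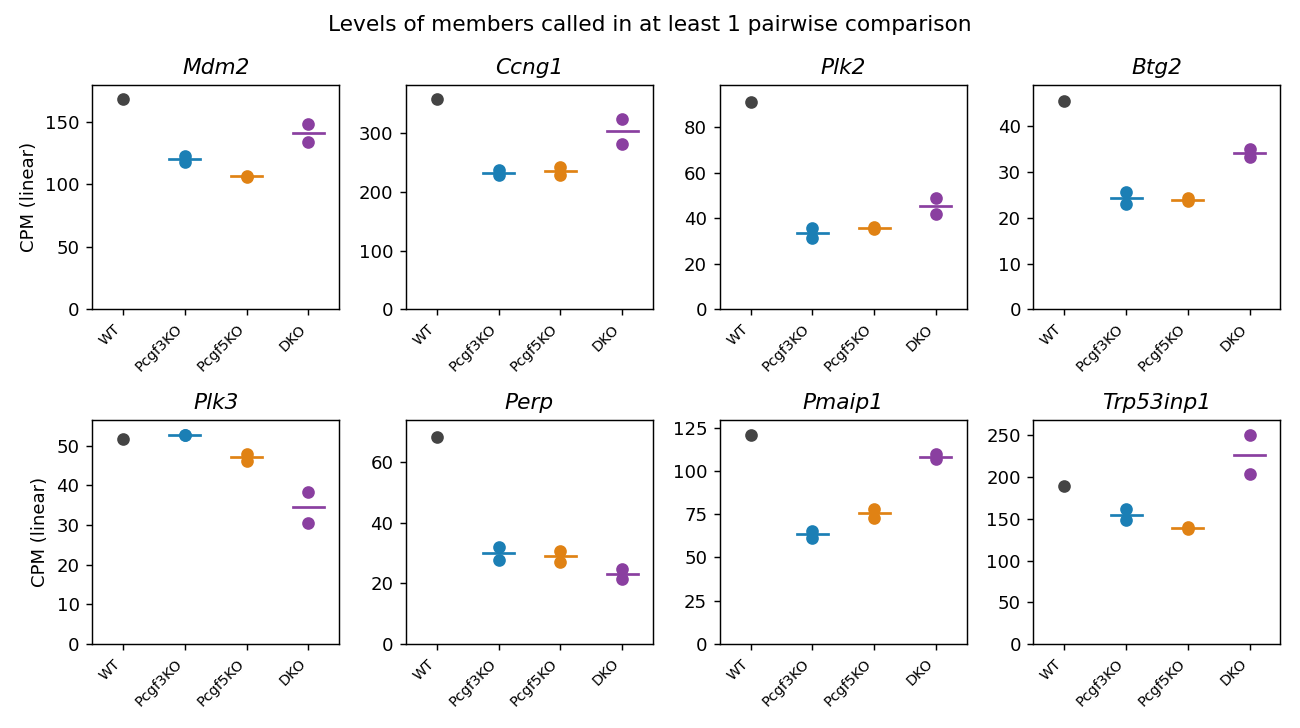
CPM (linear axis from 0) of the 8 members called in at least 1 pairwise comparison, by group, with each library a point and a line at the mean of 2 libraries (WT is 1 library). Mdm2, Ccng1, Plk2, Btg2, Pmaip1 and Trp53inp1 are higher in both DKO libraries than in the 4 single-knockout libraries. The genes were picked by their calls, and the share of all genes with that order was not determined. Perp is low in all 6 edited libraries, and Plk3 is lowest in DKO.

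Among the cell death genes, Perp and Pmaip1 fell in the single knockouts, and 10 of the 12 members that could be tested did not pass against WT. Perp (chromosome 10, 18845071 to 18857073), a membrane protein of p53-driven death that is also a building block of desmosomes in epithelia, had 68.0 CPM in the WT library, 27.6 and 32.0 in Pcgf3KO, 30.7 and 27.0 in Pcgf5KO, with 21.5 and 24.8 in DKO. It was lowest in DKO, and fell 2.28-fold in Pcgf3KO (−1.19 ± 0.14, adjusted p = 0.00356), 2.35-fold in Pcgf5KO (−1.23 ± 0.14, adjusted p = 0.0031) and 2.94-fold in DKO (−1.55 ± 0.14, adjusted p = 0.00087). Its calls were lost by edgeR without Pcgf3KO replicate 1 (adjusted p = 0.0655) in Pcgf3KO and without Pcgf5KO replicate 2 (0.058) in Pcgf5KO. The desmosome gene Dsp moved with it, at 70 CPM in WT, 21.4 and 25.1 with Pcgf3 lost, 16 and 15.5 with Pcgf5 lost, and 11.6 and 16.5 with both lost, and so did the keratin gene Krt8, at 417.7 CPM in WT and between 69.8 and 197.5 in the edited libraries. Both passed in all 3 knockouts. Of the 11 trophoblast and epithelial markers, 4, 5 and 6 were lower in Pcgf3KO, Pcgf5KO and DKO (1.28%, 1.68% and 1.89% of all genes). In each, 0 were called higher (1.08%, 1.31% and 1.33% of all genes). Not all of the list moved down: 3, 1 and 3 of the 11 had a log2 fold change above 0. Tfap2c had 36.3 CPM in WT and 45.6 and 46.1 in Pcgf3KO. The part of such cells in the Perp result was not tested.

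Pmaip1, which encodes the BH3-only death protein Noxa, had 120.5 CPM in WT, while the Pcgf3KO libraries had 61.5 and 65.3, the Pcgf5KO libraries 72.9 and 78.2, and the DKO libraries 109.7 and 106.8. The single knockouts were lower than both other groups without overlap. It fell 1.9-fold in Pcgf3KO (−0.93 ± 0.10, adjusted p = 0.00198) and 1.6-fold in Pcgf5KO (−0.68 ± 0.10, adjusted p = 0.00938), and in DKO its −0.15 ± 0.10 did not pass (adjusted p = 0.423). The call in Pcgf3KO was lost without Pcgf3KO replicate 1 (adjusted p = 0.053, edgeR) and that in Pcgf5KO without Pcgf5KO replicate 1 (0.165) or replicate 2 (0.109). Bbc3, the gene of the related protein Puma, had 28.5 CPM in WT and 19.4 to 25 in the edited libraries, and its −0.51 ± 0.15 in Pcgf3KO did not pass (adjusted p = 0.13). Phlda3, an inhibitor of Akt signalling, had 65.5 CPM in WT and 37.9 to 55.8 in the edited libraries, with −0.60 ± 0.19 in Pcgf5KO (adjusted p = 0.136). Tnfrsf10b, the mouse TRAIL receptor gene, had 48.2 CPM in WT and 35.3 to 41.2 in the edited libraries, with −0.43 ± 0.11 in Pcgf5KO (adjusted p = 0.0832). In these 3 genes every edited library lay below WT, by less than the test could call.

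The other cell death genes included some with this order and some without it. Bax, the pore former of the mitochondrial outer membrane, had 80.7 CPM in the WT library, 82.8 and 84.7 in Pcgf3KO, 97.0 and 106.7 in Pcgf5KO, with 71.6 and 93.1 in DKO. Apaf1, the scaffold of the apoptosome, lay between 63.0 and 84.3 CPM, Pidd1, which assembles a caspase-2 platform, between 18.0 and 24.7, and Ei24 between 64.9 and 84.4. Aen, a nuclease gene that p53 induces, lay between 111.6 and 143.3 CPM, and Zmat3, a zinc finger protein that acts on RNA, between 158.7 and 191.8, both with every edited library below WT. In Ei24 every edited library lay above WT. None of these 6 passed in any pairwise comparison of the main fit to 7 libraries. Reads of Ei24 and of Bax can overlap those of neighbouring genes (Gm26787 on the other strand and Gm45808).

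Of the 4 DNA repair genes, 0 passed against WT in the main edgeR fit or by DESeq2 in any knockout, with 1 at an unadjusted p under 0.05 in Pcgf3KO, 1 in Pcgf5KO and 0 in DKO. Of all genes, 1.08% to 1.89% were called in each direction, shares at which few or none of 4 would be. With a replicate block or no filter on low counts, Polk was called lower in Pcgf5KO. Without a DKO replicate Polk was called lower in both single knockouts, and without DKO replicate 2 Ddb2 was called higher in DKO. Polk, a polymerase that copies past damaged bases, had 23.7 CPM in WT, 16.6 and 16.5 with Pcgf3 lost, 15.1 and 12.7 with Pcgf5 lost, and 27.3 and 18.4 with both lost. All 4 single-knockout libraries lay below WT and below both DKO libraries, with −0.52 ± 0.22 (adjusted p = 0.282) and −0.76 ± 0.22 (adjusted p = 0.109) against WT. Ddb2, a sensor of ultraviolet damage, was low, with 5.47 CPM in WT and 10.5 in DKO replicate 1 against 5.93 in DKO replicate 2, and it overlaps Acp2 on the other strand. Xpc, the lesion recognition factor of excision repair, lay between 40.2 and 44.9 CPM in all 7 libraries, and Rrm2b, a ribonucleotide reductase subunit, between 14.6 and 22.0.

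Of the 5 genes of metabolism and stress defence, 0 passed in any pairwise comparison of all 7 libraries by edgeR or by DESeq2, with 2 at an unadjusted p under 0.05 in Pcgf3KO, 0 in Pcgf5KO and 1 in DKO against WT. Against WT, 1.08% to 1.89% of all genes were called in each direction, shares at which few or none of 5 would be. Without a DKO replicate some were called, among them Sesn1 and Sesn2 lower in Pcgf3KO, in fits that also called more of all genes. Sesn1 and Sesn2 encode sestrins, which restrain mTORC1 and limit oxidative damage. Sesn1 had 21.4 CPM in WT, while the Pcgf3KO libraries had 16.3 and 15.5, the Pcgf5KO libraries 16.1 and 19.3, and the DKO libraries 21.7 and 20.9, so that DKO and WT were above the single knockouts, without passing the test (−0.43 ± 0.15 in Pcgf3KO, adjusted p = 0.195). Sesn2 had 155.8 CPM in WT and 120.3 to 141.8 in the edited libraries. Tigar, which lowers glycolytic flux, lay between 60.4 and 73.0 CPM, Ephx1, an epoxide hydrolase gene, between 15.1 and 22.2, and Abhd4, a lipase gene, between 36.2 and 56.2 with its lowest value in DKO replicate 1.

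How did the double knockout compare with the single knockouts? Several members that were low in the single knockouts were nearer to WT in DKO. Pmaip1, Trp53inp1 and Btg2 were higher in DKO than in Pcgf3KO (3 of 33 members, with 0.734% of all genes called higher), and Plk3 was lower (1 member, 1.0% of genes). Mdm2, Pmaip1, Trp53inp1 and Btg2 were higher in DKO than in Pcgf5KO (4 of 33, 0.996% of genes) and 0 members were lower (1.28% of genes, with 4 members at an unadjusted p under 0.05 and 1, Plk3, called by DESeq2). Pmaip1 was 1.71-fold higher than in Pcgf3KO (0.77 ± 0.08, adjusted p = 0.00328) and 1.43-fold higher than in Pcgf5KO (0.52 ± 0.08, adjusted p = 0.022). Trp53inp1 (chromosome 4, 11156431 to 11174379), a stress protein that promotes autophagy and p53 activity, had 188.9 CPM in the WT library, 161.7 and 148.1 in Pcgf3KO, 139.9 and 138.4 in Pcgf5KO, with 250.5 and 203.8 in DKO. It was 1.47-fold higher in DKO than in Pcgf3KO (0.55 ± 0.10, adjusted p = 0.0317) and 1.63-fold higher than in Pcgf5KO (0.71 ± 0.10, adjusted p = 0.0176). Btg2 was higher by 0.49 ± 0.10 (adjusted p = 0.0492) and 0.51 ± 0.10 (0.043), and Mdm2 was higher than in Pcgf5KO by 0.41 ± 0.08 (0.0405). Plk3 was 1.53-fold lower in DKO than in Pcgf3KO (−0.61 ± 0.12, adjusted p = 0.0335). The median over the 33 members was 0.22 against Pcgf3KO and 0.08 against Pcgf5KO, beside 0.0121 and 0.0155 for all genes.

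These calls between knockouts need all the single-knockout libraries. Against Pcgf3KO, no member was called without a Pcgf3KO library, and only Pmaip1 without a Pcgf5KO library. Against Pcgf5KO, no member was called without any 1 of the 4 single-knockout libraries. Without a DKO library more members were called higher in both comparisons, and some lower. Those fits also called more of all genes, and the share of members called lower was near that of all genes. In fits without 1 library the adjusted p rose to as much as 0.109 for Pmaip1, 0.396 for Trp53inp1, 0.534 for Btg2 and 0.345 for Plk3 against Pcgf3KO, and to 0.335, 0.315, 0.39 and 0.392 for Pmaip1, Trp53inp1, Btg2 and Mdm2 against Pcgf5KO. In each of these fits the direction was the same. Markers of feeder cells also differed between these groups. Of 17 tested, 5 were higher and 1 lower in DKO than in Pcgf3KO (0.734% and 1.0% of all genes). Against Pcgf5KO, 2 feeder markers were higher and 2 lower (0.996% and 1.28% of all genes). Their part in the result was not tested.

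A test added after these values were seen asked if the DKO change was the sum of the single-knockout changes, all on the log2 scale and against the same WT library. This difference was above 0 and called for 8 of 33 members (1.77% of all genes were called above) and below 0 and called for 0 (2.02% of genes; 2 members at an unadjusted p under 0.05, and 0 by DESeq2). It was largest for Plk2 (1.79 ± 0.17, adjusted p = 0.00183), Pmaip1 (1.45 ± 0.13, adjusted p = 0.00128) and Btg2 (1.42 ± 0.16, adjusted p = 0.0033), followed by Polk (1.22 ± 0.28, adjusted p = 0.0478), Trp53inp1 (0.99 ± 0.16, adjusted p = 0.0123), Ccng1 (0.98 ± 0.13, adjusted p = 0.00734), Mdm2 (0.89 ± 0.13, adjusted p = 0.00826) and Perp (0.87 ± 0.19, adjusted p = 0.0386). For Plk2 and Perp, which fell in all 3 knockouts, the DKO fall was smaller than the 2 single falls together; for Pmaip1, Btg2, Mdm2 and Ccng1 both single knockouts were called lower and DKO was not. The median over members was 0.39, beside 0.0079 for all genes. Plk2 and Pmaip1 were called without any 1 of the 6 edited libraries, while the count fell to 3 without Pcgf3KO replicate 1 or replicate 2 or Pcgf5KO replicate 2, and to 2 without Pcgf5KO replicate 1. Without a DKO library more members were called above 0. Trp53 and Plk3 were then called below 0, and without DKO replicate 2 so were Bax and Abhd4. Those fits also called more of all genes in both directions. Trp53 was also called below 0 with a replicate block and with no filter on low counts. Markers of other cell types departed in the same direction: 7 of 17 feeder markers tested were called above 0 (median 1.27), 3 of 9 endoderm markers (median 1.56) and 2 of 11 trophoblast and epithelial markers (median 0.43), with 0 called below in each, while of 12 ES cell markers 1 was above and 2 below (median −0.24). The part of these cells in the result was not tested. The sum uses WT replicate 2 in each term, so a chance high or low value in that 1 library enters the difference.

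**Figure D4:**
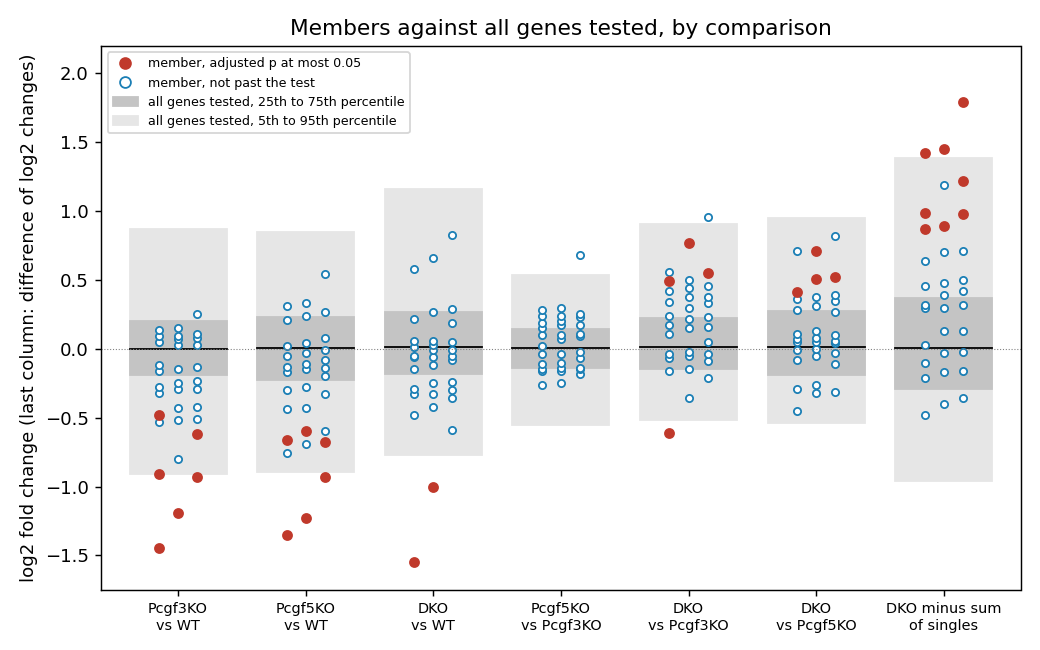
Log2 fold changes of the 33 members (points, filled red where called) in each comparison, over the 5th to 95th (light) and 25th to 75th (dark) percentiles of the 15669 genes tested, with a line at their median; the last column is the departure of DKO from additivity. The called members lie below 0 in the 3 comparisons with WT, and all 8 in the last column lie above 0.

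No member passed between the 2 single knockouts, which does not show that they act alike. Between Pcgf5KO and Pcgf3KO 0 of 33 members were higher (0.0893% of genes) and 0 lower (0.0511% of genes) by edgeR, and 0 by DESeq2, with 6 higher and 0 lower at an unadjusted p under 0.05. The differences were 0.10 ± 0.11 for Plk2, −0.04 ± 0.12 for Perp, 0.25 ± 0.08 for Pmaip1, −0.02 ± 0.11 for Btg2, 0.02 ± 0.08 for Ccng1 and −0.18 ± 0.08 for Mdm2. Without DKO replicate 1 or DKO replicate 2, some members were called higher in Pcgf5KO, among them Trp53, Bax and Pmaip1. Fewer, Mdm2, Mdm4 and Trp53inp1, were called lower. Those fits also called more of all genes in both directions.

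For 3 members both WT libraries could be used, in a test on the 2702 genes that passed the filter among those listed in all 8 tables, with CPM scaled to those genes alone. Trp53inp1 had 1004.6 and 1065.6 CPM in WT, 911.1 and 836.7 with Pcgf3 lost, 784.8 and 774.2 with Pcgf5 lost, and 1416 and 1152.5 with both lost. The single knockouts lay below both WT libraries and DKO above them. It fell in Pcgf5KO (−0.41 ± 0.10, adjusted p = 0.0306; 4.29% of the 2702 genes were called lower), while in the 7-library test the same change (−0.44 ± 0.12) gave an adjusted p of 0.0997. It was higher in DKO than in Pcgf3KO (0.56 ± 0.10, adjusted p = 0.0394; 0.148% of genes) and than in Pcgf5KO (0.72 ± 0.10, adjusted p = 0.0219; 1.22% of genes), and its 0.31 ± 0.10 in DKO against WT gave 0.0752. In this test the fall in Pcgf5KO was not called without either WT library or either Pcgf5KO library. The rise over Pcgf3KO was not called without either WT library or any 1 of the 4 single-knockout libraries. The rise over Pcgf5KO was not called without either Pcgf5KO library. Bbc3 had 133.1 and 160.6 CPM in WT and 109.6 to 139.8 in the edited libraries, and Ephx1 90.9 and 97.6 in WT and 85.1 to 125.8. Neither passed in any comparison of the fit to all 8 libraries. Bbc3 in Pcgf5KO replicate 2 (139.8) and DKO replicate 2 (133.3) lay above WT replicate 1, so its edited libraries were all below WT replicate 2 only. In all 3 members WT replicate 2 was the higher of the WT libraries.

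Other p53 targets, from a list of 49 that holds no member, moved in part the same way against WT. Of 47 tested, 6 were lower in Pcgf3KO, 5 in Pcgf5KO and 6 in the DKO cells by edgeR (1.28%, 1.68% and 1.89% of all genes). In each, 0 were higher (1.08%, 1.31% and 1.33% of all genes), shares at which few or none of 47 would be called. At an unadjusted p under 0.05, 1, 3 and 1 were higher, and by DESeq2 0, 1 and 0. The medians of the 47 were −0.16, −0.19 and −0.20, beside 0.0024, 0.005 and 0.0136 for all genes. Csf1, the macrophage growth factor, had 13.2 CPM in WT and 2.29 to 3.95 in the edited libraries, and passed in all 3. Lif, the cytokine that keeps ES cells undifferentiated, had 14.1 CPM in the WT library, 6.65 and 7.05 in Pcgf3KO, 6.33 and 6.31 in Pcgf5KO, with 9.33 and 9.09 in DKO, and passed in the single knockouts (adjusted p = 0.0147 and 0.0106). Atf3, a stress transcription factor gene, had 8.31 CPM in WT and 2.74 to 3.95 in the edited libraries and also passed in all 3 (adjusted p = 0.0303, 0.0248 and 0.0337). Eda2r, a death receptor gene on the X chromosome, passed in Pcgf3KO and Pcgf5KO with −0.75 ± 0.14 and −0.63 ± 0.14, and Epha2, a receptor tyrosine kinase gene, in Pcgf3KO and DKO with −0.63 ± 0.10 and −0.47 ± 0.10.

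The genes that act on p53 from above, and those that p21 keeps down, showed few calls. Of 21 upstream regulators tested (the damage kinases and ligases of the p53 protein), 1 was called higher in DKO by edgeR, as were 1.33% of all genes. It was Atr, a kinase of the replication stress response, at 49.7 CPM in WT and 85.9 and 69.5 in DKO (0.64 ± 0.14, adjusted p = 0.0448). By edgeR or by DESeq2, 0 were called in Pcgf3KO and Pcgf5KO (4 and 3 at an unadjusted p under 0.05). Of 20 cell cycle genes that are repressed through p21, 0 were called by edgeR in any comparison with WT. Of all genes, 1.08% to 1.89% were called in each direction, shares at which few or none of 20 would be. At an unadjusted p under 0.05, 3, 4 and 5 of the 20 passed in Pcgf3KO, Pcgf5KO and DKO, and DESeq2 called 0, 0 and 1. Their median log2 fold changes were 0.06, −0.01 and 0.02.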

How the data were processed

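The members and gene lists were chosen with earlier results of these data known. Each deposited table lists raw read counts for Ensembl genes, per the file headers and values. The submitters' processing notes name HTSeq 0.6.0, TopHat2 2.0.12, Cufflinks 2.2.1 and mm10, without roles; annotation release and strand setting: not given in the sources used here. Genes absent from the shortened WT replicate 1 table were treated as not measured there. From the counts, edgeR 4.0.16 in R 4.3.3 (glmQLFit, glmQLFTest, TMM, filterByExpr) was fitted to all groups, with group as the only term: 7 libraries, 15669 genes holding 99.93% of counts, 3 residual degrees of freedom. p-values were adjusted over all genes tested, and CPM is scaled by TMM. All members are named, and of each other list up to 4 called genes with the smallest p. A called gene of the other lists is not reported here. Alternatives were size factors of the DESeq2 kind, no filter, DESeq2 1.42.0, a replicate block, all 8 libraries, and each library left out. On counts simulated for Pcgf3KO against WT (14450 genes), the fit called 81.5% of genes changed 2-fold, and 11 others. The simulation gave all genes and groups the same spread, while in the data the DKO replicates stood furthest apart. These rates therefore need not hold for the data. Coordinates are those of the tables (mm10, 1-based); 46488 identifiers were matched to a symbol in GENCODE M21. Promoter sequences are from RefSeq (GRCm38.p6), numbered like mm10.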

Additional observations from a re-analysis of the deposited data

Results flagged for a closer look

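For 8 members the change in DKO differed from the sum of the changes in the single knockouts, tested as the difference itself with edgeR and adjusted over all genes. On the log2 scale the DKO change exceeded that sum by 1.79 for Plk2, 1.45 for Pmaip1, 1.42 for Btg2, 1.22 for Polk, 0.99 for Trp53inp1, 0.98 for Ccng1, 0.89 for Mdm2 and 0.87 for Perp. These genes come from the feedback, cell cycle, cell death and repair roles, and 0 members were called in the other direction (2 at an unadjusted p under 0.05). Of all genes, 1.77% were called above the sum and 2.02% below it. Each change is taken against WT replicate 2 alone, so a chance high value in that library raises the difference. Mdm2, Ccng1, Plk2, Btg2, Perp and Pmaip1 were also called lower in both single knockouts against that library. For Trp53inp1 the same difference with both WT libraries was 0.96 (adjusted p = 0.00337). Feeder and endoderm markers departed in the same direction (7 of 17 and 3 of 9 called above, medians 1.27 and 1.56, against 0.39 over the members), and their part in the result was not tested. Without a DKO library some members, Trp53 and Plk3 among them, were called below the sum, in fits that also called more of all genes in both directions. The DKO libraries are the pair furthest apart, and the difference was tested after its size had been seen.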

How the results depend on the processing

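Of the 30 called results of single members, 314 alternatives were run: 240 kept the call, 74 lost it in the same direction and 0 reversed it, and all 74 losses came from leaving out a single-knockout library. The medians over members moved by less than the replicate spread in all 73 alternatives. Replicate numbers were not shown to pair the samples: same-numbered replicate differences correlated at −0.0139, 0.135 and 0.0101 between the knockout groups. WT was not part of this check, which cannot exclude a pairing. With a replicate block, 7 members were called in DKO against Pcgf3KO and 9 against Pcgf5KO, and genes called were 499, 1532, 62 (Pcgf5KO against Pcgf3KO) and 1305 (DKO minus the sum). No filter on low counts gave 10 members in Pcgf5KO, 5 in DKO, 9 in DKO against Pcgf3KO and 12 against Pcgf5KO. It gave 1105, 1222 and 1474 genes in Pcgf3KO, Pcgf5KO and DKO against WT, 1355 and 2312 in DKO against each single knockout, 224 between the single knockouts and 1904 for DKO minus the sum. DESeq2 called 7 members in DKO against Pcgf5KO, with 804 genes, and 79 genes between the single knockouts. On the genes listed in all 8 tables, the genes called were, in the same order, 149, 233, 219, 14, 64, 5 and 187, and with the replicate block there too 201, 303, 312, 65, 265, 12 and 320. That test covers 3 members, so it has no count of members. Main values were 370, 468, 505, 272, 357, 22 and 594 genes.

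Leaving out 1 library gave 1 to 17 members in Pcgf3KO, 1 to 17 in Pcgf5KO and 2 to 15 in DKO against WT, 0 to 23 in DKO against Pcgf3KO, 0 to 17 against Pcgf5KO, 0 to 12 between the single knockouts and 2 to 21 for DKO minus the sum. The genes called ranged from 46 to 3167, 37 to 4119, 165 to 5379, 7 to 5571, 3 to 6583, 3 to 1909 and 35 to 5712. The highest counts came without a DKO library and the lowest without a single-knockout library; the lone library left in a group is then assumed to vary like the others. WT replicate 2 could not be left out of a comparison with WT, since no WT library would remain. Low members such as Fas, Gdf15, Trp73 and Ddb2 are limited by their counts.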
